A study of Homo sapiens with 4 samples.

Results

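The genes described here are 10 mRNAs of the Hippo, YAP and TEAD pathway: the coactivators YAP1 and WWTR1 (the TAZ gene), the DNA-binding partner TEAD1, the regulators LATS2, AJUBA and AMOTL2, and the target genes CYR61, CTGF, ANKRD1 and CRIM1. They were taken by name from the deposited gene abundance tables, where all 10 of 10 were present among 26485 gene identifiers, each as 1 row per table. All 10 passed the filter that left 11723 protein-coding genes for comparison, which asked that TPM average 1 or more (TPM is a length-scaled share of all transcripts, with each library summing to 1000000). SW1736 and 8505C are established cell lines from anaplastic thyroid cancer. Each was cultured in RPMI-1640 with 10% serum and given 1.5 µM dihydrotanshinone (DHT in the labels), a diterpenoid quinone of Salvia root, or its vehicle DMSO, for 24 h. The 4 groups are thus SW1736 with DHT, SW1736 with DMSO, 8505C with DHT and 8505C with DMSO, and each is 1 library of bulk mRNA. No difference below has a replicate check or a test.

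YAP1 and TAZ are coactivators without a DNA-binding domain, and they reach their target genes by binding TEAD transcription factors. In the Hippo cascade the kinases STK3 and STK4 activate LATS1 and LATS2, which phosphorylate YAP1 and TAZ and keep them out of the nucleus. Cell crowding, cell shape and actin tension act on this step, so pathway activity is set largely on proteins, which mRNA levels do not show. CYR61, CTGF and ANKRD1 are widely used as readouts of YAP and TEAD activity, and AMOTL2 and LATS2 are target genes that also restrain YAP1.

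The TEAD proteins recognise the letters GGAATG, and the promoters of CTGF and ANKRD1 are shown because these readouts of the pathway went opposite ways in SW1736. Sequences are RefSeq's for GRCh38.p14, from the gene strand, and capitals mark GGAATG or, in ANKRD1, also the AP-1 motif TGANTCA. The CTGF stretch (chr6:131951379-131951622, minus strand) runs from 250 to 7 bases before the RefSeq start and ends just outside the deposited locus. The first ANKRD1 stretch (chr10:90921276-90921337, minus strand) runs from 250 to 189 bases before the RefSeq start, and the second (chr10:90921199-90921226, minus strand) from 139 to 112 bases before it. The deposited ANKRD1 locus begins 188 bases upstream of the RefSeq start, so the second stretch lies inside that locus.
CTGF promoter: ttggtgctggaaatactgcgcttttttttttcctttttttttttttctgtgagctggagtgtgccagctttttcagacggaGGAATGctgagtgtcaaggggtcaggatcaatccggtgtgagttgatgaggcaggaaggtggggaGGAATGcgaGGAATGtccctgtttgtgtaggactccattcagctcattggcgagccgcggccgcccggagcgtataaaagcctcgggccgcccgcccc
ANKRD1 upstream stretch: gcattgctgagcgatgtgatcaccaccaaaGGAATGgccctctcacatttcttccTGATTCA
ANKRD1 downstream site: acactgagtctGGAATGaaaattcacct
CTGF held GGAATG 3 times, at 169, 104 and 95 bases before the start. ANKRD1 held it 2 times, at 220 and 128 bases before the start, and TGANTCA 1 time, at 195 bases. Both strands were searched in windows of 300 bases, which reach 250 bases before and 50 after each start. Of 35116 such windows, 14.03% held GGAATG at least 1 time, 1.37% at least 2 times and 0.128% at least 3 times, and 7.71% held TGANTCA. Windows were found for 7 of the 10 genes, and 6 of these had GGAATG in at least 1 window: CTGF, ANKRD1, YAP1, AMOTL2, LATS2 and AJUBA, with the 2 windows of AMOTL2 and of AJUBA counted together. WWTR1 had no match in its 2 windows. The motif AP-1 was found in ANKRD1 alone among the 7, and the CArG box of serum response factor in none of them, beside 1.29% of all windows. A match is a run of letters and no evidence of binding.

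Dihydrotanshinone was set against vehicle first in SW1736. In that line 8 of the 10 mRNAs had lower TPM with DHT, of which CYR61 and WWTR1 were not lower relative to the median gene, while the TPM of ANKRD1 was 26.1 times and that of LATS2 1.35 times the vehicle value. TEAD1, CRIM1, AJUBA and YAP1 were at least 2-fold lower, and the classical targets CYR61 and CTGF were lower by less than 2-fold. Folds are differences of log2(TPM + 1), which understates changes of low genes. At 2-fold, 1 member was higher and 4 were lower, beside 2.78% of all genes higher and 15.6% lower. In bulk RNA, fewer expressing cells and less mRNA per cell cannot be told apart.

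In TPM, most genes of SW1736 were displaced downward with DHT, and this bears on the members. Among genes averaging 5 TPM or more the median log2 fold was -0.43, and 77.8% of all genes compared were below 0. The size depends on the unit. In FPKM, which is scaled by length and mapped fragments, 6.01% of all genes were 2-fold lower, against 15.6% in TPM. The shares 2-fold higher were 2.93% in FPKM and 2.78% in TPM. The displacement also followed mRNA length: with genes split into 3 equal groups, the median was -0.14 for short, -0.46 for middle-length and -0.72 for long mRNAs. YAP1, WWTR1, TEAD1, CRIM1, AMOTL2 and LATS2 have long mRNAs, AJUBA a middle-length one, and CYR61, CTGF and ANKRD1 short ones. Centred on the median gene, TEAD1 and ANKRD1 were the members past 2-fold, 1 lower and 1 higher, beside 4.06% and 4.78% of all genes. Centred on the median of the length group, ANKRD1 and LATS2 were past 2-fold, both higher, and no member was lower, beside 4.92% of genes higher and 2.77% lower. Whether length takes part in these differences was not tested.

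**Figure D1:**
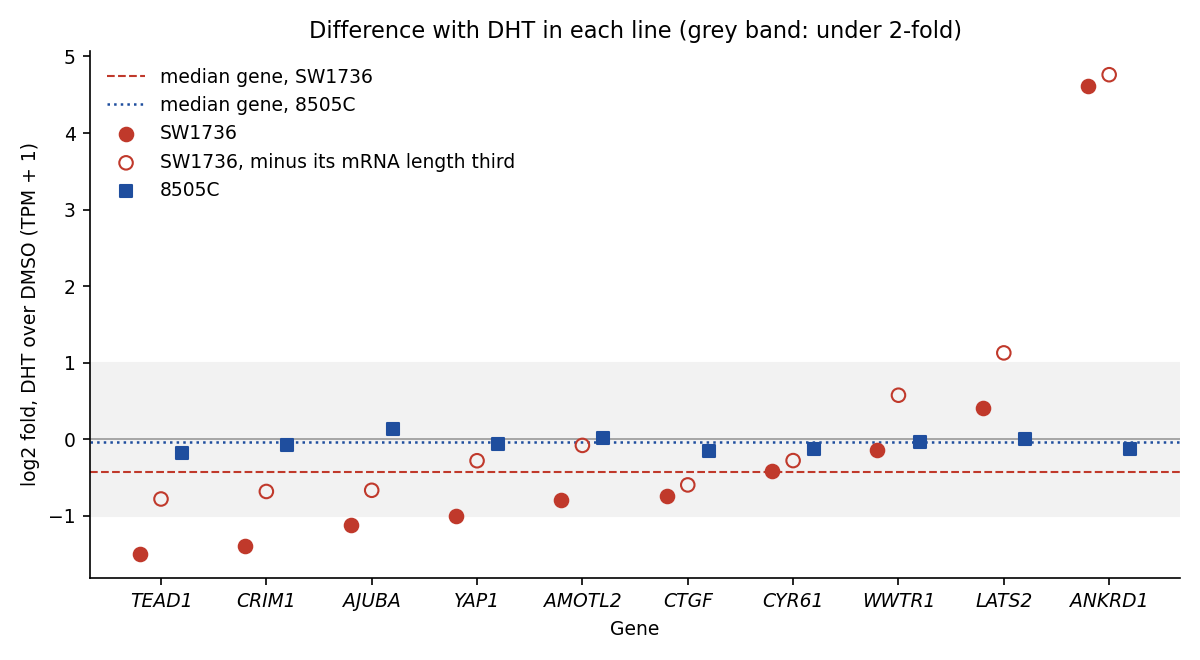
Log2 fold of DHT over DMSO for each gene, on the log2(TPM + 1) scale, in SW1736 (filled circles) and 8505C (squares), with open circles for SW1736 after subtraction of the median of its mRNA length group. Dashed and dotted lines mark the median gene of each line, and ANKRD1 at 4.62 in SW1736 is the member far outside the grey band of 2-fold, while every 8505C value lies between -0.18 and 0.13.

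Among the transcription factors, YAP1 (chr11:102110461-102233423) stood at 33.5 TPM in SW1736 with DHT, against 68.1 TPM with DMSO. The ratio of 0.493 lies at the 2-fold limit, just past it on the log2(TPM + 1) scale, and the log2 fold was -0.57 relative to the median gene and -0.28 relative to long mRNAs. WWTR1 (chr3:149517235-149703273) stood at 35.3 TPM with DHT, against 39.1 TPM with DMSO. That difference of -0.14 turned to 0.28 relative to the median gene and to 0.57 relative to long mRNAs, so no direction is read for WWTR1. The exons of WWTR1 share 795 annotated bases with WWTR1-AS1 on the other strand, which reached at most 0.824 TPM. TEAD1 (chr11:12674422-12944737), the most abundant TEAD mRNA of 8505C, stood at 24.8 TPM in SW1736 with DHT, against 71.9 TPM with DMSO. Its log2 fold of -1.50 placed it at rank 363 from the lowest of 11723 genes, and it was -1.07 relative to the median gene and -0.78 relative to long mRNAs.

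Shares of summed TPM within a library do not depend on its scaling, and they describe mRNA. TEAD1 has a long mRNA (8477 bases), and whether mRNA length takes part in these shares was not tested. WWTR1 made up 51.2% of the summed YAP1 and WWTR1 TPM in SW1736 with DHT, against 36.5% with DMSO. In 8505C that share was 23.7% with DHT and 23.5% with DMSO. TEAD1 made up 15.2% of the TPM of TEAD1 to TEAD4 in SW1736 with DHT, against 28.5% with DMSO, and 43.3% in 8505C with DHT, against 47.2% with DMSO. TEAD4 held the largest TEAD share in SW1736, 46.8% with DHT and 33.7% with DMSO. TEAD2 held 27.4% with DHT and 25.7% with DMSO in SW1736, and 10.8% with DHT and 9.94% with DMSO in 8505C. Within SW1736 the shares of WWTR1 and TEAD4 were thus larger in the DHT library, and those of YAP1 and TEAD1 smaller. Neither WWTR1 (35.3 TPM with DHT, against 39.1 TPM with DMSO) nor TEAD4 (76.1 TPM, against 85.0 TPM) had higher TPM with DHT. In 8505C each of these shares lay within 4 percentage points of its DMSO value.

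**Figure D2:**
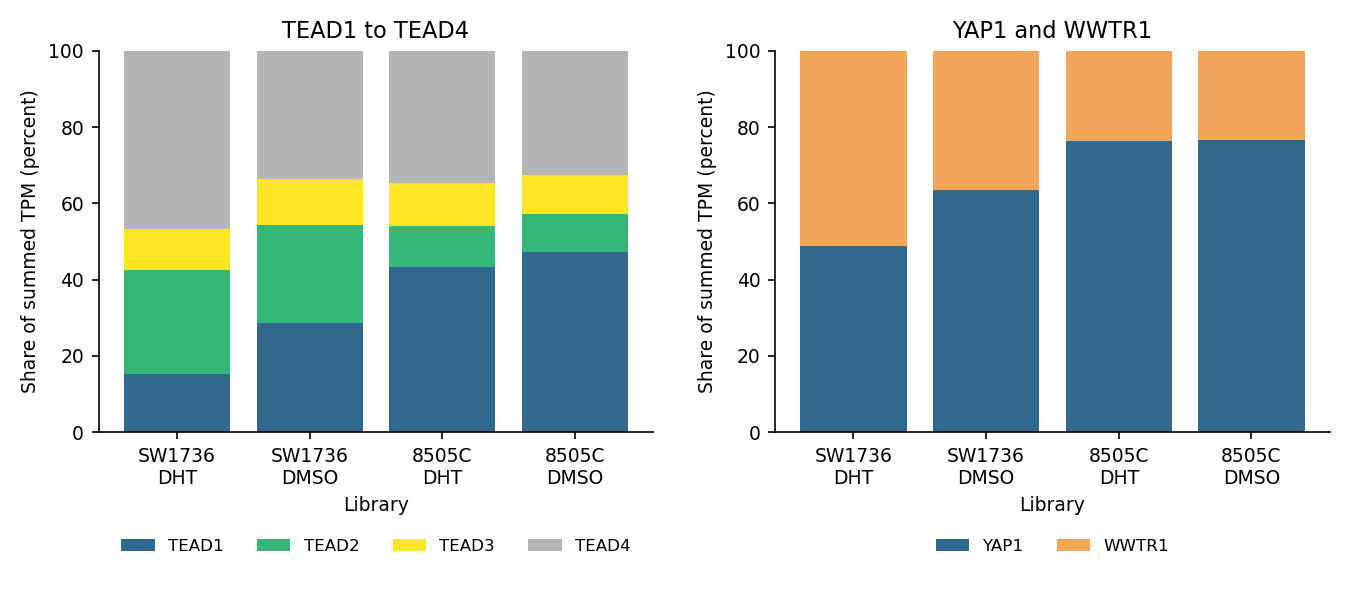
Share of the summed TPM, in percent, held by each of TEAD1 to TEAD4 (left) and by YAP1 and WWTR1 (right) in each of the 4 libraries. Of the 4 libraries, SW1736 with DHT has the smallest TEAD1 share, at 15.2%, and the largest WWTR1 share, at 51.2%.

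Among the regulators, LATS2 (chr13:20973036-21061583), a kinase that phosphorylates YAP1, stood at 26.2 TPM in SW1736 with DHT, against 19.5 TPM with DMSO. Its log2 fold was 0.41 and was 0.84 relative to the median gene and 1.13 relative to long mRNAs. AJUBA (chr14:22971174-22982642), a LIM-domain scaffold that binds and restrains LATS kinases, stood at 32.7 TPM with DHT, against 72.7 TPM with DMSO. The log2 fold of AJUBA was -1.13, and -0.70 relative to the median gene. AMOTL2 (chr3:134355345-134375417), an angiomotin that binds YAP1 at cell junctions, stood at 61.0 TPM with DHT, against 107 TPM with DMSO. Its log2 fold was -0.80, and was -0.37 relative to the median gene and -0.08 relative to the median of long mRNAs. At 4521 bases the AMOTL2 mRNA lies at the short end of that group, which spans 4489 to 34526 bases.

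Among the targets, CYR61 and CTGF encode secreted matricellular proteins that bind integrins, and they were the most abundant members in 3 of the 4 libraries. CYR61 (chr1:85580761-85583965) stood at 521 TPM in SW1736 with DHT, against 698 TPM with DMSO. Its log2 fold of -0.42 was close to that of the median gene, and became 0.01 when centred on it and -0.28 relative to short mRNAs. CTGF (chr6:131948177-131951378) stood at 362 TPM with DHT, against 606 TPM with DMSO, a log2 fold of -0.74 that was -0.31 relative to the median gene and -0.60 relative to short mRNAs. CRIM1 (chr2:36356227-36551135), which encodes a transmembrane protein that binds bone morphogenetic proteins, stood at 69.3 TPM with DHT, against 185 TPM with DMSO. Its log2 fold was -1.40, and -0.97 relative to the median gene. The fold of CRIM1 relative to long mRNAs was -0.68, close to that of AJUBA relative to middle-length mRNAs (-0.67).

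ANKRD1 (chr10:90912100-90921275) encodes a nuclear and sarcomeric ankyrin repeat protein. It stood at 408 TPM in SW1736 with DHT, against 15.6 TPM with DMSO, and was the 17th highest fold of 11723 genes. Its rank by level among these genes was 344 with DHT and 7257 with DMSO. Set against CTGF in the same library, its TPM was 1.13 times that of CTGF with DHT and 0.0258 times with DMSO. The ratio of CYR61 to CTGF was 1.44 with DHT and 1.15 with DMSO. ANKRD1 therefore parted from CTGF and CYR61, with which it shares use as a readout, by a wide margin in this pair of libraries. Its log2 fold lay between 4.32 and 5.05 over the settings tried.

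**Figure D3:**
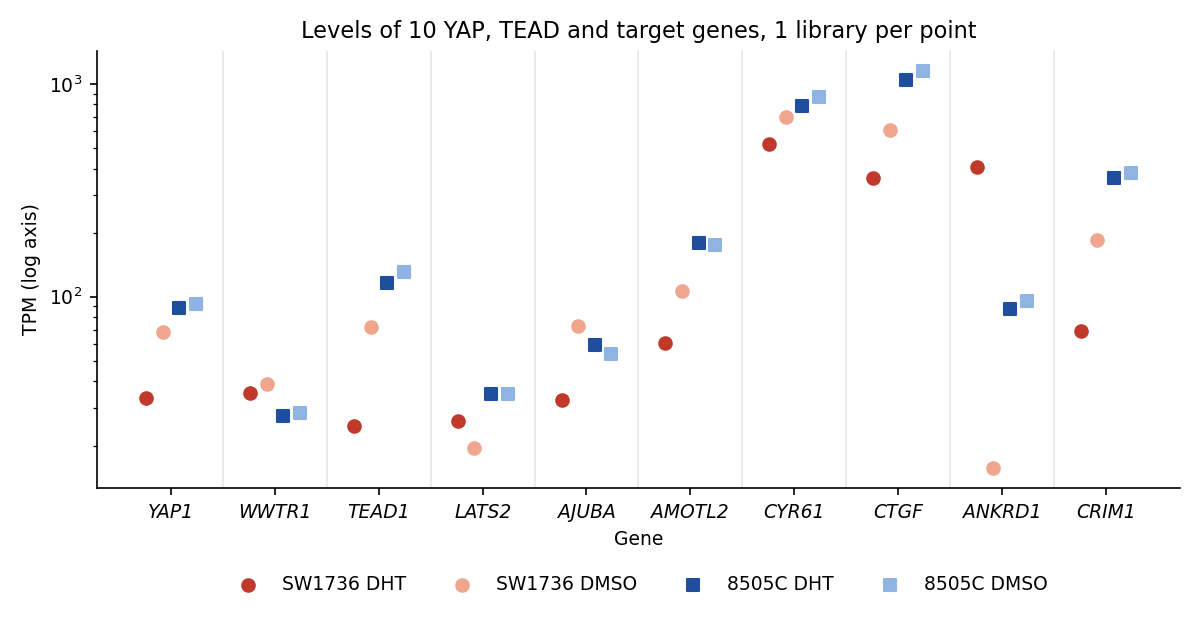
TPM of each gene in the 4 libraries, on a log axis, with 1 point per library. ANKRD1 is the only gene whose SW1736 DHT library lies above all 3 others, at 408 TPM, and its SW1736 DMSO library, at 15.6 TPM, is the lowest point of the plot.

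In 8505C the same dose and time left the members close to their vehicle values. All 10 were within 1.2-fold, as were 88.1% of all genes, and none reached 2-fold, beside 0.273% of all genes higher and 0.162% lower. YAP1 stood at 88.7 TPM with DHT, against 92.4 TPM with DMSO, and TEAD1 at 115 TPM, against 131 TPM. TEAD1 had the lowest fold of the members, -0.18, and AJUBA the highest, 0.13, at 59.1 TPM with DHT, against 54.0 TPM with DMSO. CTGF stood at 1038 TPM with DHT, against 1153 TPM with DMSO, and CYR61 at 788 TPM, against 863 TPM. ANKRD1 stood at 87.9 TPM with DHT, against 95.9 TPM with DMSO, a log2 fold of -0.12. Its TPM was 0.0848 times that of CTGF with DHT and 0.0832 times with DMSO, so the balance of the targets hardly moved. WWTR1 (27.5 TPM with DHT, against 28.4 TPM with DMSO), CRIM1 (363 TPM, against 382 TPM), AMOTL2 (178 TPM, against 176 TPM) and LATS2 (34.8 TPM, against 34.9 TPM) lay between -0.07 and 0.02 on the log2 scale.

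The difference in log2 fold between the lines, SW1736 minus 8505C, was 4.74 for ANKRD1, 0.41 for LATS2 and -0.10 for WWTR1. It was negative for the other members as well, between -1.33 for CRIM1 and -0.29 for CYR61. After each line was centred on its median gene, CYR61 (0.10) and WWTR1 (0.30) turned positive, and TEAD1 (-0.92), CRIM1 (-0.93) and AJUBA (-0.86) kept the most negative values. Each line has 1 pair of libraries, so these differences were not tested.

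The vehicle libraries of the lines were compared next. In 8505C, 8 of the 10 mRNAs stood higher than in SW1736 and 2, WWTR1 and AJUBA, lower, beside 52.9% of all genes lower. The median log2 fold of the 10 was 0.76, beside -0.05 over all genes. At 2-fold, ANKRD1 (95.9 TPM in 8505C, against 15.6 TPM in SW1736, log2 fold 2.54) and CRIM1 (382 TPM, against 185 TPM, 1.04) were higher and none was lower, beside 9.97% of all genes higher and 12.6% lower. CTGF stood at 1153 TPM in 8505C, against 606 TPM in SW1736 (0.93), TEAD1 at 131 TPM, against 71.9 TPM (0.86), and LATS2 at 34.9 TPM, against 19.5 TPM (0.81). YAP1 stood at 92.4 TPM in 8505C, against 68.1 TPM in SW1736 (0.43). WWTR1 stood at 28.4 TPM in 8505C, against 39.1 TPM in SW1736 (-0.45). The coactivators thus differed in opposite directions between the vehicle libraries. The levels of YAP1, TEAD1, CTGF, CYR61, CRIM1, AMOTL2 and LATS2 in either 8505C library were above those in either SW1736 library, and WWTR1 was below. Of all genes 39.3% were above and 28.2% below in this way, so such separation was common. ANKRD1 with DHT in SW1736 stood above both 8505C libraries, and with DMSO below both.

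Other genes of the pathway were read from lists of its known parts and targets. Of 10 genes of the YAP and TEAD complex, 8 passed the filter. In SW1736 with DHT, 2 of the 8 were at least 2-fold lower (YAP1 and TEAD1) and none higher, with a median of -0.63 beside -0.42 over all genes. TEAD3 was at -0.78, TEAD2 at -0.53, and the TEAD cofactor genes VGLL4 and VGLL3 at -0.64 and -0.62. Of 15 Hippo kinases and upstream regulators, 6 were 2-fold lower and none higher (median -0.76). MOB1B, an activator of LATS kinases, stood at 2.48 TPM in SW1736 with DHT, against 8.33 TPM with DMSO (-1.42), TAOK1 was at -1.40, STK4 at -1.24 and WWC2 at -1.12. Beside the 15.6% of all genes that were 2-fold lower, the share of regulators was larger. Centred on the median gene, no regulator was 2-fold lower and 1 was higher, and in the complex TEAD1 alone was lower. Of all genes 4.06% were lower and 4.78% higher once centred.

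Of 9 adaptors that bind YAP1 or LATS kinases, 5 were 2-fold lower in SW1736 with DHT and none higher (median -1.09), beside 15.6% of all genes lower and 2.78% higher, and none was either way once centred. AMOT, the founding angiomotin gene, stood at 5.12 TPM with DHT, against 14.5 TPM with DMSO (-1.34), the phosphatase gene PTPN14 was at -1.26, the AJUBA relative LIMD1 at -1.20 and AMOTL1 at -1.09. Of 22 genes of a YAP and TAZ target signature, 21 passed the filter, and 2 were higher and 5 lower (median -0.63), beside the same shares of all genes. The 2 higher genes were ANKRD1 and GADD45A, a gene induced by DNA damage and other stress, which stood at 775 TPM with DHT, against 86.8 TPM with DMSO (3.14). ARHGEF17 (-1.29), PTPN14, TGFB2 (-1.14) and CRIM1 were among the lower ones, and centred on the median gene none was lower and 3 were higher, beside 4.06% and 4.78% of all genes. ANKRD1 and CTGF are also known targets of serum response factor, which acts with actin. Of 16 genes of that kind, 15 passed the filter and none was 2-fold either way in SW1736. Their median was 0.08, beside -0.42 over all genes, and 7 of the 15 were below 0, beside 77.8% of all genes. Centred on the median gene, 1 of them, FHL2, was 2-fold higher (1.10) and none lower. As deposited, the 4 folds of this list farthest from 0 were FHL2 at 0.68, SRF at -0.60, FLNA at -0.71 and VCL at -0.90. Chosen in this way, they lean lower than the list does. In 8505C with DHT, no gene of these 5 lists reached 2-fold, and their medians lay between -0.07 and 0.10, beside -0.03 over all genes.

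**Figure D4:**
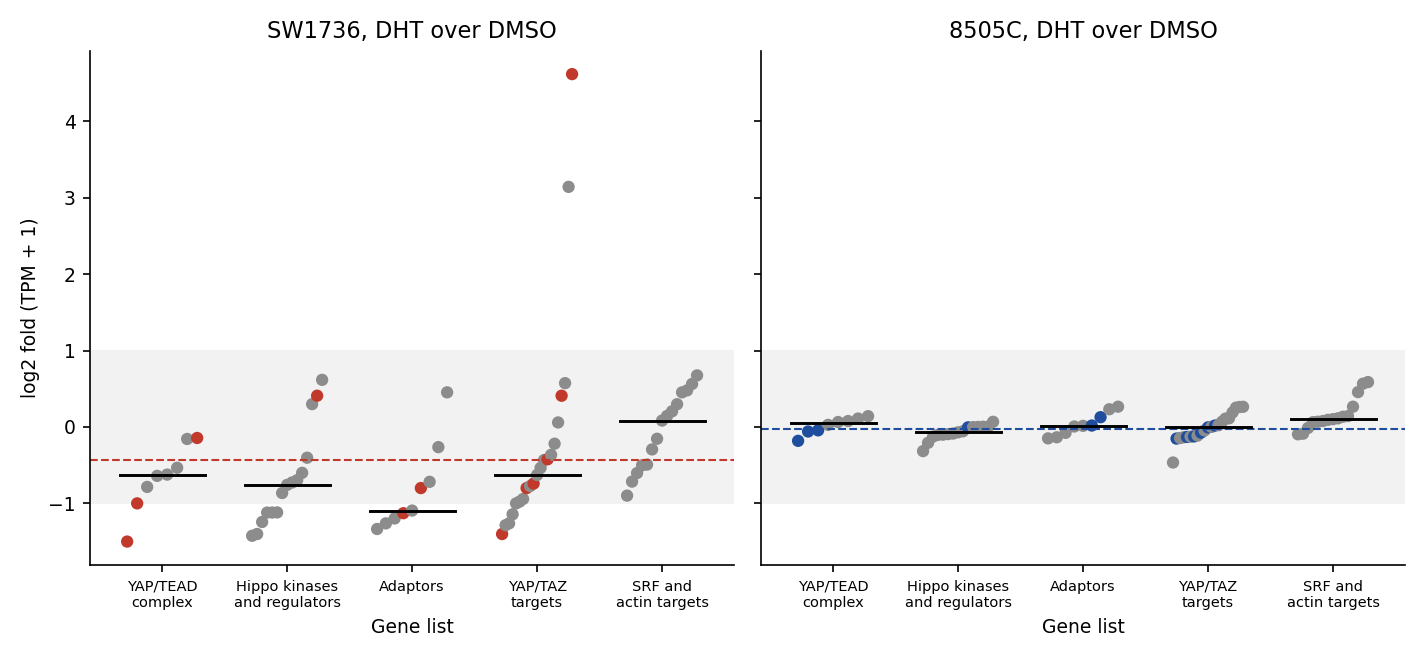
Log2 fold of DHT over DMSO, on the log2(TPM + 1) scale, for every gene of 5 lists that passed the filter, in SW1736 (left) and 8505C (right). Coloured points are the 10 members, black bars the list medians, dashed lines the median gene and the grey band 2-fold; ANKRD1 (4.62) and GADD45A (3.14) stand alone at the top in SW1736.

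Profiles over the 4 libraries were compared for the readouts ANKRD1, CTGF and CYR61. Likeness was the Euclidean distance between centred log2(TPM + 1) profiles, over 9761 other genes averaging 5 TPM or more. For ANKRD1 no gene lay within 0.25, and the nearest were CEBPB (0.41), GEM (0.95) and NDRG1 (1.05). CEBPB, a leucine zipper transcription factor gene, stood at 318 TPM in SW1736 with DHT, against 8.37 TPM with DMSO, and at 57.7 TPM in 8505C with DHT, against 51.6 TPM with DMSO. For CTGF 222 genes lay within 0.25, the nearest being PGM2, MESDC2 and GRSF1, and for CYR61 858 did, the nearest being GPALPP1, ADPGK and XPNPEP3. With 4 points per profile this is a description. Profiles were not scaled to equal size, so a gene with a large fold has few near genes whatever its pattern. CYR61 and CTGF each had many genes within 0.25, with different nearest genes, and ANKRD1 had none. These counts therefore add nothing to the large fold of ANKRD1, and the share of all genes with none within 0.25 was not counted.

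The libraries held an estimated 3.27 to 4.15 Gb of aligned bases, from the ratio of coverage to FPKM. That ratio differed between genes, being lower for YAP1 and AJUBA than for CYR61, so the depth is approximate. The number of reads behind a value is not known, and values therefore carry no interval. Against their label as thyroid cells, TSHR was listed at 0 in all 4 libraries and TG reached at most 0.0587 TPM. Of the thyroid transcription factor genes, PAX8 stood at 117 TPM in SW1736 with DHT and 87.1 TPM with DMSO, and at 0.282 TPM or less in 8505C. FOXE1 stood at 22.3 TPM in SW1736 with DHT and 60.6 TPM with DMSO, and at 0.101 TPM or less in 8505C. NKX2-1 stood at 174 TPM in 8505C with DHT and 69.8 TPM with DMSO, and was listed at 0 in SW1736. KRT7, KRT8 and KRT18 were abundant in every library, the lowest value being 403 TPM, whereas the epithelial adhesion genes CDH1 and EPCAM reached at most 0.0631 and 0.184 TPM. The 10 markers of immune, endothelial and fibroblast cells summed to 23.2 TPM in SW1736 with DHT, against 16.4 TPM with DMSO, and to 215 TPM in 8505C with DHT, against 179 TPM with DMSO. In 8505C CDH5 and CD68 made up most of that sum, and CDH5 was listed at 0 in SW1736. CD3E and PDGFRA were at 0 throughout and PTPRC at 0.0498 TPM or less. The part of these markers in the differences between lines was not tested.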

How the data were processed

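Per the labels' protocols, 1 µg of total RNA per sample was made into libraries with the Universal Plus mRNA-Seq kit. The submitters' processing notes name bcl2fastq 2.20, StringTie and hg38. Which aligner, annotation, strand setting and StringTie version served is not given in the sources used. The authors deposited, per gene, TPM, FPKM and coverage per the file headers. The deposited TPM sums to 1000000 per library, so a gain of some mRNAs lowers the others. The deposited FPKM is scaled by length and mapped fragments, and the deposited coverage signal is mean read depth, unscaled.

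Rows of 1 identifier were summed. Of 26485 identifiers 25404 matched a gene: 23758 by RefSeq symbol, 892 by GENCODE 29 name and 754 by synonym. Of these 19083 were protein-coding, and 11723 had a mean of at least 1 TPM. Folds were differences of log2(TPM + 1), with 2-fold as the limit. mRNA length, the longest coding transcript in GENCODE 29, was found for 11700 genes (99.8%). Python 3.11.15, pandas 2.3.3, numpy 2.4.6 and matplotlib 3.10.9 were used, and the fold calculation was checked on values with known folds. No test was run, since each group has 1 library, and no fit over the lines was made.

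Members and lists were chosen with earlier results of these data known. Named were all members, up to 4 other genes per pathway list with the largest fold in SW1736 at a mean of at least 1 TPM, and the 3 nearest profiles to ANKRD1, CYR61 and CTGF. Cell type markers and genes of the closing observations are named outside that rule. Alternatives were other pseudocounts, limits and filters, centring on the median gene, FPKM and scaling without 88 ribosomal protein genes. Centring by mRNA length and scaled coverage were added after the data were seen. A few marker genes are not reported here.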

Additional observations from a re-analysis of the deposited data

Results flagged for a closer look

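With DHT, the log2 folds of 4 members had opposite signs in the 2 lines, each on 1 pair of libraries. This contrast of the lines was not tested. Of all genes, 77.8% were below 0 in SW1736 and 57.0% in 8505C, so opposite signs are common. The share of all genes with opposite signs was not counted, and the 4 members are not read as unusual. For ANKRD1 the log2 fold in SW1736 minus that in 8505C was 4.74, from 4.62 and -0.12. For AJUBA it was -1.26, from -1.13 and 0.13. For AMOTL2 it was -0.82, from -0.80 and 0.02, and for LATS2 0.41, from 0.41 and -0.0049. The 8505C values of these genes were all within 1.2-fold of vehicle. Centred on the median gene of each line, the differences were 5.14 for ANKRD1, -0.86 for AJUBA, -0.42 for AMOTL2 and 0.81 for LATS2. AMOTL2 and LATS2 rest on 8505C folds near 0, so no direction is read for them in 8505C. Once centred, LATS2 was higher in both lines, at 0.84 in SW1736 and 0.027 in 8505C.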

How the results depend on the processing

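In SW1736 with DHT, 5 members were at least 2-fold apart from vehicle. The count was 2 when centred on the median gene (TEAD1 and ANKRD1) and 2 when centred within groups of mRNA length (ANKRD1 and LATS2). With FPKM it was 3 (TEAD1, ANKRD1 and CRIM1), beside 2.93% of all genes higher and 6.01% lower. At a limit of 3-fold it was 1 (ANKRD1), beside 1.57% and 2.18%. At 1.5-fold it was 7, with 1 higher and 6 lower, beside 4.70% and 38.2%. With a pseudocount of 5 the count was 4, without YAP1, beside 1.94% of all genes higher and 5.86% lower. It was the same 4 without ribosomal protein genes in the scaling (beside 3.17% and 13.2%) and with scaled coverage (2.83% and 14.5%). Between the vehicle libraries, 2 members were 2-fold apart, both higher in 8505C, beside 9.97% of all genes higher and 12.6% lower. At a limit of 1.5-fold 6 were, all higher, beside 18.9% and 24.2%. At 3-fold 1 was, beside 5.55% and 6.11%. In 8505C with DHT the count was 0 under every setting tried. Of all genes there, 0.273% were higher and 0.162% lower at 2-fold, and 1.27% and 0.529% at 1.5-fold. Of 180 recomputed member folds 14 moved past the 2-fold limit or by more than 1.5-fold, and no member past 2-fold changed sign. The shares of WWTR1 and TEAD1 moved by less than 1.5 times with coverage in place of TPM (56.9% and 41.7% for WWTR1 in SW1736 with DHT and DMSO). A fit of treatment with the line as a block, which would leave 1 residual degree of freedom, was not run. Unknown read numbers and single libraries limit the precision of every value.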

Other observations

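Some Hippo genes differed between the lines whatever the treatment, and those given here were chosen after their values were seen. NF2, which encodes the tumour suppressor merlin upstream of LATS kinases, stood at 13.3 TPM in 8505C with DHT and 14.4 TPM with DMSO, against 55.3 TPM in SW1736 with DHT and 121 TPM with DMSO. VGLL3, a cofactor gene of TEAD proteins, stood at 30.1 TPM in 8505C with DHT and 27.2 TPM with DMSO, against 1.16 TPM in SW1736 with DHT and 2.32 TPM with DMSO. AMOT stood at 1.95 and 2.11 TPM in 8505C with DHT and DMSO, against 5.12 and 14.5 TPM in SW1736. STK3 stood at 67.7 and 72.3 TPM in 8505C with DHT and DMSO, against 18.5 and 24.7 TPM in SW1736. For each of these genes both libraries of a line lay on the same side of both libraries of the other line, as they did for 39.3% of all genes with 8505C above and 28.2% with 8505C below. FRMD6, an upstream regulator, was the member of its list that stood 2-fold higher in SW1736 with DHT once centred on the median gene, at 94.6 TPM with DHT, against 61.3 TPM with DMSO. The other CCN genes NOV, WISP1, WISP2 and WISP3 stayed below 1 TPM in all 4 libraries, so CYR61 and CTGF carried the family in both lines.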
